A study of Bos taurus with 19 samples.

Results

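Myostatin (MSTN, also GDF8, Ensembl gene ENSBTAG00000011808) was followed as 1 gene of the 27570 listed in the counts of longissimus dorsi muscle, the long muscle of the back, from 19 bull calves at 1 month of age. It was taken by its Ensembl identifier, which was present in all 19 calves. The calves were offspring of Brangus-Angus cows. The dams of the control group (9 calves) were fed poor limpograss hay together with molasses and urea. Those of the methionine group (10 calves) were fed likewise with, for each cow daily, 3.7 g of methionine protected from the rumen. Both diets ran from day -30 to day 90 relative to the breeding season, so a group stands for what the dam ate around conception and in early gestation. Each library is 1 calf, and whole muscle was sequenced, so that fewer cells of a type and less RNA per cell cannot be told apart.

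Myostatin is a secreted protein of the transforming growth factor beta family that muscle fibres make and that restrains the number and size of those fibres. Its precursor is cut by furin-type proteases and held latent by its own propeptide until tolloid-type proteases release it. The free protein binds activin type II receptors, chiefly ACVR2B, and signals through SMAD2 and SMAD3, while follistatin and related secreted proteins block it. Cattle without working myostatin are hypermuscular, which makes the gene a textbook regulator of beef muscle mass. In the RefSeq table of a later assembly (ARS-UCD2.0), MSTN is a protein-coding gene between C2H2orf88 and PMS1, and 0 other entries of that table overlap it. That assembly is not the build of the counts (ARS-UCD1.2), so no coordinates are given.

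MSTN was clearly expressed in every calf, with deposited counts between 458 and 2886. In the control calves the counts were 683 at the lowest, 1378 at the median and 2326 at the highest, and in the methionine calves 458, 1771 and 2886. All genes together gave totals from 49077786 to 88539777 in a calf, and the 25 most abundant genes held from 34.5% to 43.7% of these totals. Counting error alone was between 1.86% and 4.67% of the value in a calf (the square root of the count over the count). The totals exceed the mapped reads that the study lists, so both mates of a pair may have been counted, and the error would then be between 2.63% and 6.61%. As a share of all counts, the lowest calf, methionine calf 6153, had a raw CPM (counts per 1000000 counted reads) of 6.61 (95% Wilson interval from 6.04 to 7.23). The highest, methionine calf 6485, had a raw CPM of 36.02 (interval from 34.7 to 37.4). With each pair taken as 1 read, the intervals would run from 5.81 to 7.49 and from 34.2 to 37.9. They cover counting error only and did not overlap on either basis.

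Levels are given below as CPM after trimmed mean of M-values normalization (TMM CPM), for which the 25 most abundant genes and the genes with low counts were removed as in the methods of the study. This left 14518 genes, and CPM on this scale is relative to their counts and not to all reads. The mean over the 19 calves was 35.9 ± 15.5 CPM (SD, n = 19), 2.58 times that of the median gene (13.95 CPM). By mean CPM, MSTN ranked 4267 of 14518, above 70.6% of the genes. Its neighbours in that order were closer than the spread between calves could separate, since the third gene above it had 35.98 CPM and the third below 35.92. CPM is not divided by transcript length, so this order is one of read counts and not of molecules per gene.

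Within single calves the rank moved widely. In the control calves it was 3316 at the highest place, 4437 at the median and 5591 at the lowest. Among the methionine calves these places were 2718, 3616.5 and 8252. MSTN thus stood 18.7% of the way down the list in calf 6485 and past its middle, at 56.8%, in calf 6153.

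**Figure D1:**
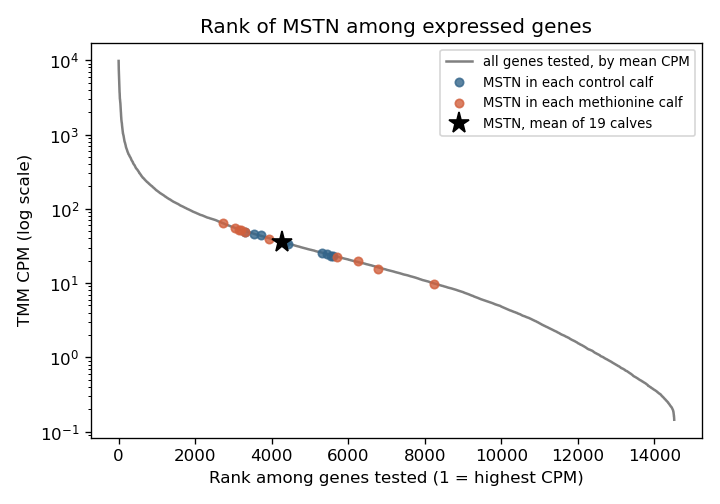
Mean TMM CPM of each of the 14518 genes tested (y axis, log scale) against rank (x axis, 1 is the highest), as a grey line, with the MSTN level and rank in each control calf (blue) and methionine calf (orange) and the mean of all calves (star, rank 4267). The orange points reach further in both directions, from rank 2718 to rank 8252.

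The first comparison asks whether the maternal diet changed the level of MSTN. In the 9 control calves the level was 22.9 CPM at the lowest (calf 6133), 33.3 at the median and 48.7 at the highest (calf 6126). In the 10 methionine calves it was 9.85 at the lowest (calf 6153), 44.4 at the median and 63.7 at the highest (calf 6485). The groups overlapped, and the range of the methionine calves held all 9 control calves. The control mean was 33.7 ± 10.4 CPM (SD, n = 9). The methionine mean was 38.0 ± 19.4 CPM (SD, n = 10).

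No difference in level was detected between diets. The log2 fold change, methionine against control, was 0.17 with a standard error of 0.29 (unadjusted p = 0.557, adjusted p = 0.996, quasi-likelihood F test of edgeR, adjusted by Benjamini-Hochberg across 14518 genes). The 95% interval of the fold change ran from 0.745 to 1.70, which leaves room for a moderate fall as well as a moderate rise. On log2 CPM the group means were 5.016 and 5.018, and the two-sided exact permutation test over all 92378 divisions of the calves gave p = 0.995. The sign depended on the method. The log2 fold change was -0.0075 in limma-voom, and -0.062 in edgeR with the log2 total count as a covariate.

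Over the whole table, edgeR's test called 0 genes at an adjusted p under 0.05, which is 0% of the 14518 genes, and 719 (4.95%) had an unadjusted p under 0.05. MSTN was not among the latter. Without the filter on low counts, 0 genes were called and 2488 of 20701 had an unadjusted p under 0.05. That share was larger than with the filter. Of the 14518 genes, DESeq2 called 7, and 757 had an unadjusted p under 0.05. The absolute fold change of MSTN was larger than that of 60.5% of the genes tested.

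**Figure D2:**
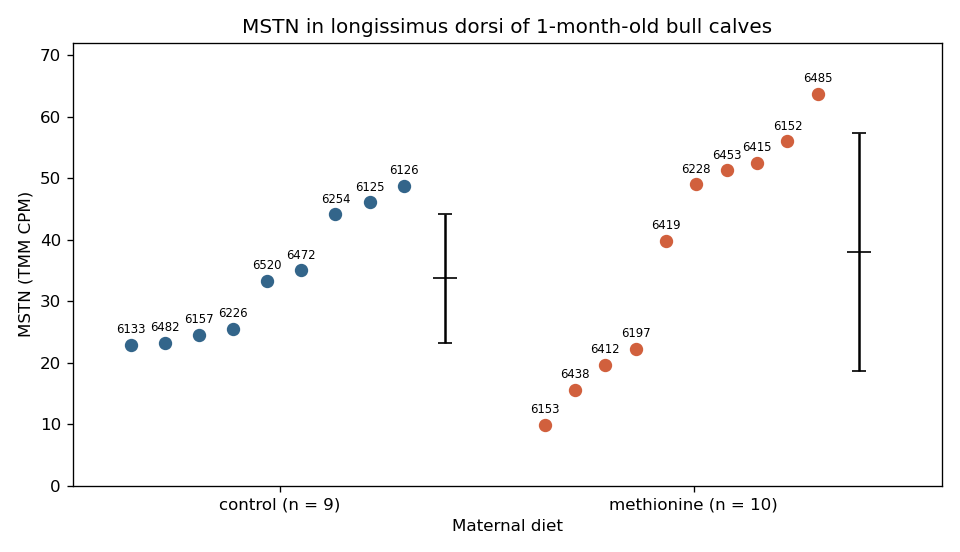
TMM CPM of MSTN (y axis) in each calf, named by its number, for the 2 maternal diets (x axis), with calves placed by level within a diet. Bars to the right of the points show the mean ± SD. The control calves lie between 22.9 and 48.7 CPM, and 9 of the 10 methionine calves lie outside that range.

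The second comparison concerns the spread between calves of the same diet. Of the 10 methionine calves, 4 lay below the lowest control calf and 5 above the highest on TMM CPM. Those below were calf 6153 (9.85 CPM), calf 6438 (15.6), calf 6412 (19.6) and calf 6197 (22.2). Those above were calf 6228 (49.02), calf 6453 (51.3), calf 6415 (52.5), calf 6152 (56.0) and calf 6485 (63.7). Methionine calf 6419, at 39.8 CPM, was the single calf inside the control range. The highest methionine calf thus had 6.47 times the level of the lowest, against 2.13 times in the control calves. Counting calves outside the control range was chosen after the values were seen, and it is given as a description. The count of 9 depended on the normalization. On raw CPM, calf 6197 (14.21) lay above control calf 6133 (13.84) and so inside the control range. On TMM CPM, calf 6228 was above control calf 6126 (48.7 CPM) by less than the counting error of either calf. A count of 9 or more of 10 was reached by 11 of the 14518 genes tested (0.0758%), MSTN included, and the median gene had 1 such calf. MSTN reached that threshold only with calves 6197 and 6228 both counted as outside.

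On log2 CPM the SD was 0.44 for the control diet and 0.93 for the methionine diet, a ratio of 2.096. The median ratio over all genes tested was 0.956, and 97.1% of the genes had a lower ratio than MSTN. The mean absolute deviation from the diet median was 0.38 among control and 0.75 among methionine calves. This difference of 0.37 had p = 0.00862 in the two-sided exact permutation test on MSTN alone. That test exchanged log2 CPM values between diets without centring them, so it takes both level and spread as equal. The diet medians were 5.06 for control and 5.47 for methionine, and a difference in level can enter this p. The same difference was not called by another test, run over all genes, whether before or after adjustment. In limma on the absolute deviations of the 14518 genes, chosen after the data were examined, MSTN had an unadjusted p of 0.124 and an adjusted p of 0.9997 (95% interval of the difference from -0.11 to 0.85). By that test 397 genes (2.73%) had an unadjusted p under 0.05 and 1 gene (0.00689%) passed the adjusted threshold, and 8.67% of the genes had a p at or below that of MSTN.

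The exact permutation p under 0.05 depended on each of the 4 low methionine calves. The difference in spread stayed positive when any one of them was left out. Without calf 6153 the difference in mean absolute deviation was 0.19 (exact permutation p = 0.109), and without calf 6438 it was 0.26 (exact permutation p = 0.109). Without calf 6412 it was 0.31 (exact permutation p = 0.0863), and without calf 6197 it was 0.33 (exact permutation p = 0.0660). Leaving out any one of the other 15 calves kept p under 0.05. Calf 6153 had a total count of 71558584, within the range of the other methionine calves, and the smallest share of counts in the 25 most abundant genes (34.5%). Calf 6438 had the lowest total count of its group, 52672118, and the fewest genes detected, 15055. Their part in the result was not tested beyond leaving each calf out.

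**Figure D3:**
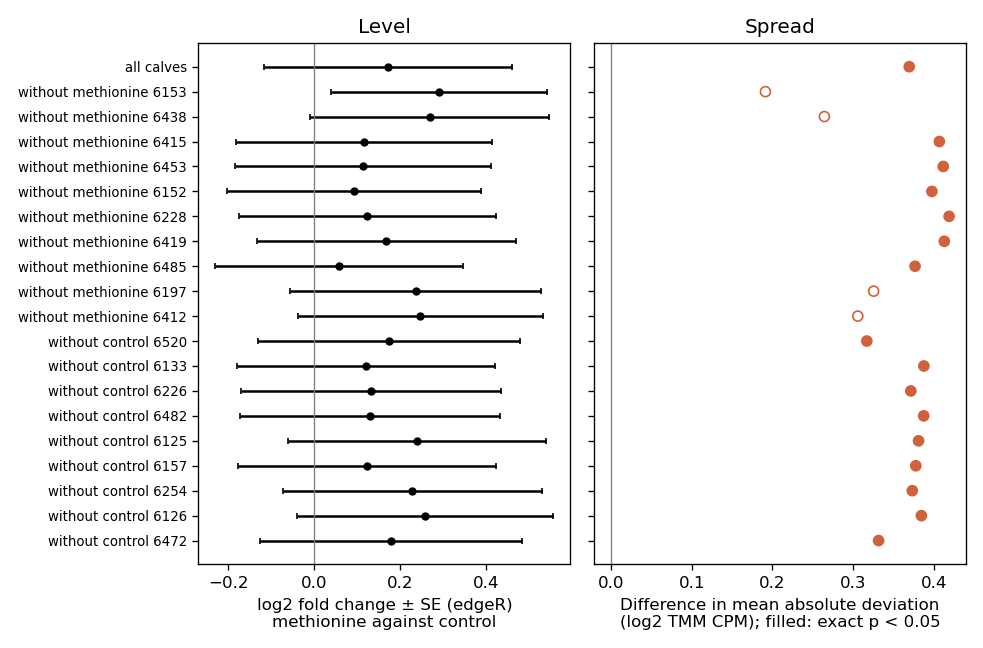
Left, log2 fold change of MSTN, methionine against control, ± SE from edgeR with all calves and with each calf left out. Right, the difference in mean absolute deviation (methionine minus control, log2 TMM CPM), with filled points where the exact permutation p was under 0.05. The fold change stays between 0.06 and 0.29, and the 4 open points are the fits without calves 6153, 6438, 6197 and 6412.

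MSTN was variable between calves for a gene of its level. Within diets, the SD of its log2 CPM was 0.74, against a median of 0.40 over all genes tested, of which 75.9% had a lower SD than MSTN. Among the 2418 genes whose mean CPM was within 1.5 times that of MSTN, the median SD was 0.27 and 97.6% had a lower SD than MSTN. Taken by diet, 85.7% of these genes had a lower SD than MSTN under the control diet and 98.1% under the methionine diet. The biological coefficient of variation that edgeR estimated was 43.3% for MSTN and 25.5% for the trend at its level.

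**Figure D4:**
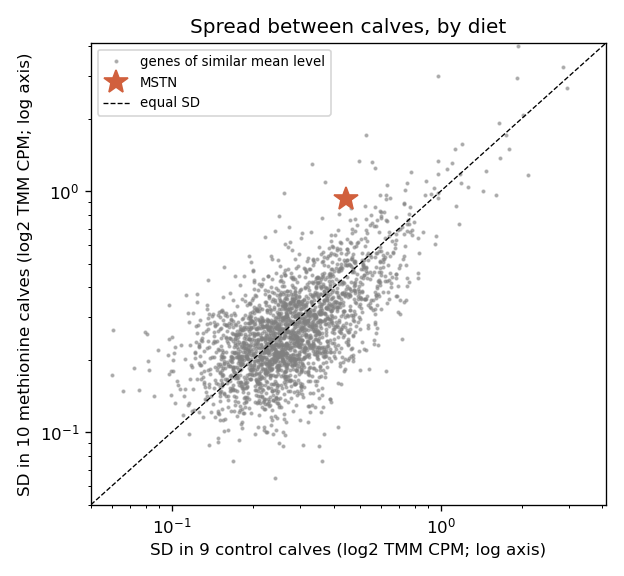
SD of log2 TMM CPM among the 9 control calves (x axis) and the 10 methionine calves (y axis), both on log axes, for the 2418 genes whose mean level was within 1.5 times that of MSTN. MSTN (star) lies above the line of equal SD, at 0.44 and 0.93.

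Depth and composition were compared with MSTN across the 19 calves, 3 measures in all, on log2 TMM CPM with 100000 permutations. The share of counts in the 25 most abundant genes had the highest correlation (Pearson r = 0.464, permutation p = 0.0465, Spearman rho = 0.486, permutation p = 0.0369). Adjusted over the 3 measures and both coefficients, each p was 0.139, which does not pass the threshold. Without the 2 calves farthest from the median share, calves 6520 and 6153, r was 0.344. Within diets, r was 0.143 for control (exact permutation p = 0.706) and 0.721 for methionine (permutation p = 0.0170, adjusted p = 0.102 over 6 relations within diets). Without calves 6153 and 6438, the 2 calves with the lowest MSTN, the r over all calves was 0.341. The mean share was 39.1% in the control and 39.0% in the methionine calves (two-sided exact permutation test, p = 0.913).

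For the log2 total count, r was 0.366 (permutation p = 0.122) and rho 0.381 (permutation p = 0.109), with adjusted p of 0.183 for both. Without calves 6482 and 6438, farthest from the median, r was 0.196. Within diets it was 0.576 for control (exact permutation p = 0.106) and 0.369 for methionine (permutation p = 0.308). The number of genes detected had r = 0.257 (permutation p = 0.288) and rho = 0.263 (permutation p = 0.275), with adjusted p of 0.288 for both. Without calves 6438 and 6482 that r was 0.0244. Within diets it was 0.267 for control (exact permutation p = 0.471) and 0.288 for methionine (permutation p = 0.425). The mean total count was 6.59e+07 under the control diet and 7.40e+07 under the methionine diet (two-sided exact permutation test, p = 0.122).

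**Figure D5:**
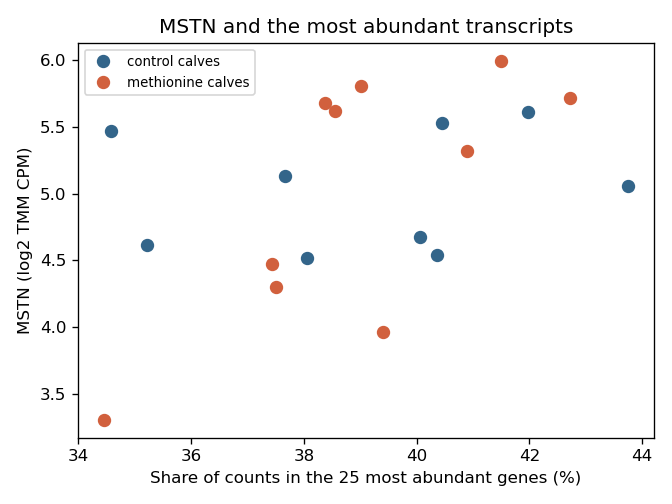
MSTN level (y axis, log2 TMM CPM) against the share of counts in the 25 most abundant genes (x axis, percent) in control calves (blue) and methionine calves (orange). The r was 0.143 among the control calves and 0.721 among the methionine calves, where calf 6153, at 34.5% and 3.31, lies at the lower left.

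The genes whose pattern between calves was most like that of MSTN were sought over all other genes tested, with the mean of each diet removed. Of 14517 genes, 0 passed an adjusted p of 0.05 by 100000 permutations of the calves within diets, the lowest adjusted p being 0.823. Of these genes 641 (4.42%) had an unadjusted p under 0.05, 346 with a positive and 295 with a negative correlation. With library size only in place of TMM, 0 genes passed and these numbers were 369 and 191. By Spearman correlation 0 genes passed as well, and 539 (3.71%) had an unadjusted p under 0.05. The highest r among genes with at least 1 CPM on average was 0.794, for ENSBTAG00000021921 (rho = 0.805, permutation p = 0.00015 and 0.00028 in that order). It was 0.740 without calves 6153 and 6438, the calves farthest from the median MSTN level, and 0.497 among control against 0.906 among methionine calves. This gene had 28.4 ± 3.27 CPM (SD, n = 9) under the control diet and 25.6 ± 3.997 CPM (SD, n = 10) under the methionine diet. The next was ENSBTAG00000012929 with r = 0.782 (rho = 0.805, permutation p = 0.00191 and 0.00083), which was 0.692 without the same 2 calves. Within diets its r was 0.613 for control and 0.814 for methionine.

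The lowest r was -0.704, for ENSBTAG00000010106 (rho = -0.689, permutation p = 0.00336 and 0.00671). It was -0.0893 among the control and -0.884 among the methionine calves. Without calves 6153 and 6438 it was -0.493. The second lowest was ENSBTAG00000004603 (r = -0.699, rho = -0.665, permutation p = 0.00328 and 0.00211), which was -0.581 without them. Within diets its r was -0.838 for control and -0.669 for methionine, so it was the weaker under methionine. For none of these genes was the difference in r between diets tested. None of these 4 genes passed the adjustment over all genes, with adjusted p of 0.823 for ENSBTAG00000021921 and 0.993 for the other 3. They were picked as the extremes of 14517 correlations, so the r values describe these calves and tend to be too large.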

How the data were processed

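The authors made poly(A) libraries of total RNA, sequenced them as paired-end reads, trimmed them with Trim Galore 0.4.4, aligned them with HISAT2 2.1.0 against ARS-UCD1.2 and assigned reads to genes by htseq-count in intersection-nonempty mode. The deposited values are raw counts per Ensembl gene, 1 library per calf, without the counter's rows for unassigned reads. The strand setting, and whether both mates of a pair were counted, are not given in the sources used here. Groups come from the sample labels, which give no batch. Of 27570 genes, 20726 had a count. Following the study's methods, the 25 most abundant genes were dropped, then those whose count was 5 or lower in 9 calves or more, leaving 14518. The study kept fewer genes after the filter it states, so the gene sets are not identical. Library sizes were recomputed on these, TMM factors came from edgeR 4.0.16 (R 4.3.3), and log2 CPM used a prior count of 2.

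Diets were compared with edgeR's quasi-likelihood test, with the standard error taken as the log2 fold change over the square root of F. DESeq2 1.42.0 and limma 3.58.1 served as alternatives, beside other normalizations, filters and prior counts, linear CPM, a depth covariate and leaving out each calf. Permutation tests and plots used Python 3.11.15 with numpy 2.4.6, scipy 1.17.1, pandas 2.3.3 and matplotlib 3.10.9. The fits and permutation tests were tested on simulated data. The whole-table test of spread, and leaving out the 2 calves with the lowest MSTN, were added after the data were examined. The gene and all lists were chosen with earlier results of these data known.

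Genes named were MSTN and the genes of most and least similar pattern with at least 1 CPM on average. The rule allowed 10 and 5 of these, as well as neighbours by level and, for each direction of the diet difference, the gene of lowest p, and it was held to 2 and 2 because identifiers carry no symbol. A symbol could be paired with 0 identifiers. Lists of myostatin receptors, inhibitors, proteases, SMAD genes, growth and myogenic factors, and of fibre and cell type markers, were therefore not analysed here, and the labelled tissue was not checked by markers. No sequence or level per length is given.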

Additional observations from a re-analysis of the deposited data

Results flagged for a closer look

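Each of 10 measures was screened in both diets, 20 sets of values in all, for a calf standing apart from the rest, and 1 was found, where chance gives about 1 in 20. ENSBTAG00000004603, the gene with the second lowest correlation with MSTN, had 144.2 CPM in methionine calf 6438. The other methionine calves lay between 64.2 and 101.9 CPM, so the gap to the nearest calf was 0.528 of the range of the group. Calf 6438 had the second lowest MSTN level. The gene was picked for its negative correlation with MSTN in these same calves, so this pairing is not a separate observation. The MSTN levels, counts and ranks themselves held no such calf in either diet.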

How the results depend on the processing

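The log2 fold change of MSTN was 0.17 and stayed positive and without a call in 7 of 9 alternatives, with adjusted p between 0.918 and 0.9998 over all 9. It turned to -0.062 with log2 total count as a covariate and to -0.0075 in limma-voom. Leaving out each calf gave 0.06 to 0.29 (unadjusted p from 0.259 to 0.842). The difference in mean log2 CPM, 0.0023, was -0.0017 with library size only, and leaving out each calf gave -0.11 to 0.20, so its sign carries no information. The difference in spread, 0.37, kept its call in the 5 alternatives of scale and normalization (exact permutation p from 0.00328 to 0.00968). In limma over the whole table, a different test, the call was lost with the same difference of 0.37 (unadjusted p = 0.124, adjusted p = 0.9997). By the exact permutation test, leaving out each calf gave 0.19 to 0.42, with the call lost in 4 of 19 fits. The mean level was 21.9 to 35.99 CPM and the rank 4265 to 4290 in the 3 alternatives run, and 21.9 is the value with the 25 most abundant genes kept. Genes called over the whole table were 0 under edgeR and limma-voom, 7 under DESeq2, and 0 to 1 with each calf left out, the 1 without control calf 6520. Unadjusted p under 0.05 was found for 719 of 14518 genes with the filter on low counts and 2488 of 20701 without it. The number of genes correlated with MSTN after adjustment was 0 under both alternatives. The difference in total count, 8.09e+06, was between 5.98e+06 and 1.05e+07 with each calf left out, and p was under 0.05 without methionine calf 6438 (0.0361) or control calf 6125 (0.0463) by the exact permutation test. The cause of these changes was not tested. Rank per kilobase and the pathway lists were not run, since no identifier was paired with a symbol. With 9 and 10 calves, the interval of the fold change, 0.745 to 1.70, sets what could be seen.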
